A study of Mus musculus with 12 samples.

Results

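Cytosolic ribosomal protein genes were described across brain and spleen of Norad-/- and Norad+/+ mice. Members were taken by gene symbol, as Rpl or Rps followed by a number, or Rplp0 to Rplp2, with an optional final letter, and the rule found 80 of the 24062 genes listed, 49 named for the large subunit and 31 for the small subunit. Norad is a cytoplasmic noncoding RNA that binds the PUMILIO proteins, and the series compared tissues with and without it. The 4 groups were Norad-/- brain, Norad+/+ brain, Norad-/- spleen and Norad+/+ spleen, with 3 poly(A) RNA-seq libraries in each, all from male C57BL/6 mice at 10 weeks of age. The Norad-/- mice carried a CRISPR/Cas9 deletion of the whole noncoding RNA that had been made in independent founder lines, and neither the line of each mouse nor whether a brain and a spleen library came from the same mouse was given in the labels. Values are FPKM, read coverage per length of transcript and per depth of the library, so levels of different genes are compared per length. Norad (listed as 2900097C17Rik) stood at 0.00586, 0.0 and 0.0121 FPKM in Norad-/- brain, against 206, 259 and 635 FPKM in Norad+/+ brain. In spleen it was at 0.00622, 0.0173 and 0.0 FPKM in Norad-/- libraries, against 62.0, 42.9 and 56.3 FPKM in Norad+/+ libraries.

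Ribosomal proteins assemble with ribosomal RNA into the large and the small subunit, which join on mRNA to carry out translation. Cells make these proteins in matched amounts, and their mRNAs are among the most abundant of most cell types. In vertebrates these mRNAs share a start of uninterrupted pyrimidines (the 5' terminal oligopyrimidine, or TOP, motif) through which mTOR signalling sets their translation, and the genes have left many processed copies, intron-less DNA copies of the mRNA, across mammalian genomes. PUMILIO proteins repress mRNAs that carry the PUMILIO response element (PRE), an 8-base motif found mainly in 3' UTRs.

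Of the 80 genes, 79 matched a coding gene of GENCODE M21 by symbol, on 19 chromosomes. The exception was Rps4l, which M21 lists as a transcribed processed pseudogene. The PRE was searched as TGTANATA on the mRNA strand of the longest annotated 3' UTR of each coding gene. It was present in 8 of the 79 members (10.1%) and in 23.2% of 21007 coding genes with a 3' UTR, and no member had more than 1. Members had short 3' UTRs, with a median of 173 bases for the longest annotated form against 961 bases over all those genes. The sites are printed because they are the places in these longest 3' UTRs that match the motif on which PUMILIO acts, each as 30 bases of GRCm38 transcript sequence (GENCODE M21) with the PRE in capitals.
Rpl5: ccagacatgaaTGTACATAggaaaataact
Rpl14: actggtgggatTGTAGATAggatgggctac
Rpl15: atgagattaagTGTATATAgtgtttgtgcc
Rpl19: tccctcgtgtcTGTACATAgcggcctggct
Rpl22: tgctgctccttTGTATATAgacactttttt
Rpl37a: ctccttacaagTGTAGATAcatctggctta
Rps15a: gtgaggttttaTGTAGATAttgaaagcatg
Rps20: cttagtgaataTGTAAATAatactatttgt
In this order the PREs lie at chr5:107908528-107908535 (+ strand), chr9:120574489-120574496 (+), chr14:18268799-18268806 (-), chr11:98030410-98030417 (+), chr4:152332566-152332573 (+), chr1:72713755-72713762 (+), chr7:118108966-118108973 (-) and chr4:3833131-3833138 (-). A match to the motif is a description of the sequence only.

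A pyrimidine run was searched as at least 8 uninterrupted C or T on the transcribed strand, reaching within 5 bases of the RefSeq start site (GRCm38.p6). It was found in 23 of the 59 members that have a promoter entry (39.0%), against 11.4% of 27025 gene symbols with one. Several members described below had no such run, among them Rplp0, Rps19 and Rpl22 (longest 4 bases each), Rpl5 (3) and Rps3 (2). A few of the starts that do have a run are shown as 30 bases, 15 before the start base and 15 from it on, with the run in capitals.
Rpl15: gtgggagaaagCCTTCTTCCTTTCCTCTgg
Rpl34: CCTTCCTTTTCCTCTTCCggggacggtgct
Rpl35a: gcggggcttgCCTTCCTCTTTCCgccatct
Rps6: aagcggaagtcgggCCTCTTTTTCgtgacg
Rps27l: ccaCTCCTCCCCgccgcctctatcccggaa
These windows lie at chr14:18270972-18271001 (- strand), chr3:130730323-130730352 (-), chr16:33056467-33056496 (+), chr4:86857353-86857382 (-) and chr9:66946071-66946100 (+). In Rpl15, Rpl34, Rpl35a and Rps6 the run spans or touches the start base, and in Rps27l it ends before it.

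Processed copies bear on every level given here, because the authors kept only reads that mapped to 1 place. For each member, every 75-base window of the coding sequence, the length of a read, was compared with the annotated transcripts of all other loci. Of the 75 members left without the 5 paralogs named with a final l, 74 had at least 1 annotated pseudogene that matched a window with up to 2 mismatches, 1242 pseudogene loci in all, and the median member had 14 other loci of any kind with such a match. For 21 of the 75 every coding window had an identical copy elsewhere, and for 2, Rps3 among them, none did. The measure counts copies among annotated transcripts only, since no genome sequence was used.

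The listed levels followed this copied share. In Norad+/+ brain the 16 members with an identical copy of under 50% of their windows had a median of 58.9 FPKM (0.695 to 186), the 27 members between 50% and 90% a median of 6.73 FPKM (0.620 to 93.3), and the 32 members at 90% or more a median of 0.561 FPKM (0.0566 to 28.2). In Norad+/+ spleen the same 3 sets had medians of 445, 32.7 and 3.004 FPKM. Over the 75 members the Spearman rho of the copied share with the mean level was -0.73 in Norad+/+ brain and -0.77 in Norad+/+ spleen, a description across genes that share libraries. With up to 2 mismatches allowed it was -0.54 and -0.56. The FPKM of a member is therefore given here as what the authors' unique reads showed and not as the amount of its mRNA, and where members are set side by side the values are listed levels only.

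**Figure D1:**
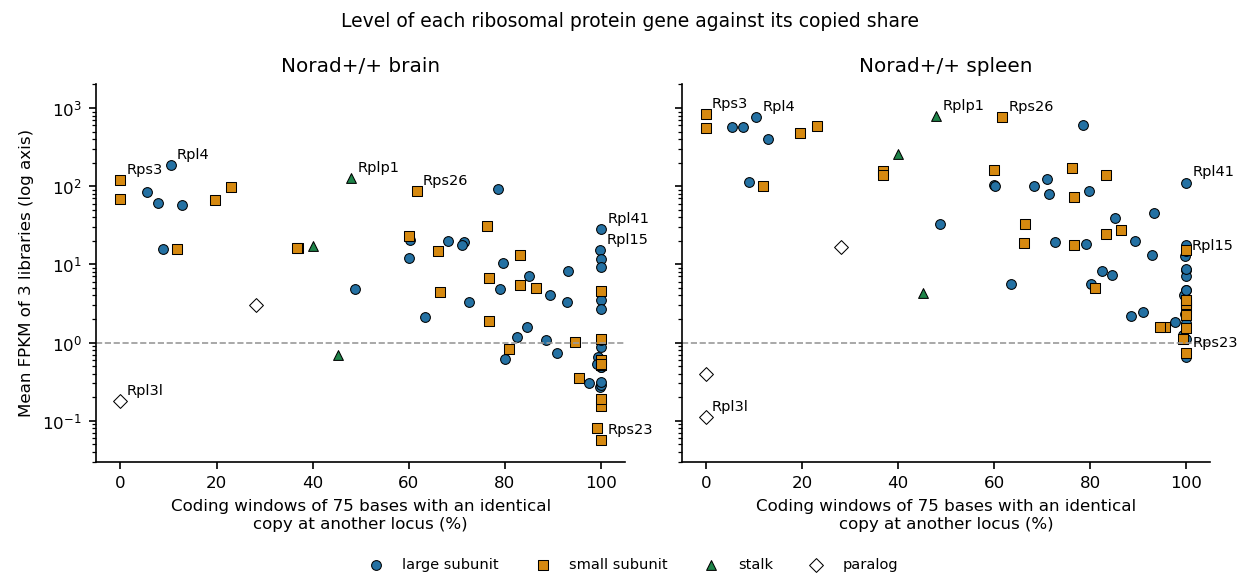
Mean FPKM of each matched ribosomal protein gene in Norad+/+ brain (left) and Norad+/+ spleen (right; log axes, 3 libraries each) against the percent of its coding windows of 75 bases that have an identical copy at another annotated locus. Rps3, with 0% copied, sits at 119 FPKM in brain, Rps23, with 100% copied, at 0.0566 FPKM, and genes at 0 cannot be drawn on a log axis.

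The ends of the range were far apart. Rps23, a universally conserved protein of the decoding site, was at 0.237, 0.0902 and 0.152 FPKM in Norad-/- brain and at 0.0247, 0.132 and 0.0135 FPKM in Norad+/+ brain. In spleen it had 0.803, 0.583 and 0.511 FPKM in Norad-/- libraries, against 0.710, 0.779 and 0.727 FPKM in Norad+/+ libraries. Rps3, which lines the mRNA entry channel of the small subunit, had 955, 945 and 937 FPKM in Norad-/- spleen, against 772, 853 and 899 FPKM in Norad+/+ spleen. For Rps23, the estimated depth and the length of the principal transcript give about 5.16 reads per Norad-/- brain library and 1.89 per Norad+/+ brain library, so a genotype difference of Rps23 could not be measured there. In all, 22 of the 75 members rested on fewer than 20 estimated reads per Norad+/+ brain library. The 10 highest members held 67.0% of the members' summed FPKM in Norad+/+ brain and 69.1% in Norad+/+ spleen, while the 40 lowest held 2.84% and 1.84%. The order was much alike between tissues, with 13 of the 15 highest members shared (Rpl4, Rplp1, Rps3, Rps15, Rpl23 and Rps26 led in brain, and Rps3, Rplp1, Rpl4, Rps26, Rpl23 and Rps15 in spleen).

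Copies also had rows with listed values. Of 7 rows named as ribosomal protein pseudogenes, Rpl14-ps1 had 31.8, 42.4 and 42.7 FPKM in Norad-/- brain, against 20.9, 36.0 and 131 FPKM in Norad+/+ brain. Rpl14, its parent gene and a large subunit protein, had 19.2, 19.2 and 23.9 FPKM in Norad-/- brain, against 15.5, 16.3 and 27.3 FPKM in Norad+/+ brain. Thus the pseudogene row was higher than the gene row in each of the 6 brain libraries. Rpl34-ps1 was likewise above Rpl34 in every spleen library, with 196, 217 and 198 FPKM in Norad-/- spleen and 163, 163 and 185 FPKM in Norad+/+ spleen, where Rpl34 had 118, 131 and 119 FPKM in Norad-/- libraries and 98.0, 98.7 and 112 FPKM in Norad+/+ libraries. Both rows moved together across these libraries at a nearly constant proportion. The Rpl34-ps1 row is therefore not read as a level separate from that of Rpl34.

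Several libraries stood apart. In Norad+/+ brain replicate 3 the members scattered widely, with 20 of 51 lying over 0.5 (log2) from their brain mean and a spread between quartiles of 0.79, against 0 to 4 such members and spreads of 0.17 to 0.29 in the other 5 brain libraries. All genes scattered there too (0.48, against 0.18 to 0.25), and the estimated depth was the lowest (28.3 M reads, against 31.6 to 36.4 M elsewhere). Norad-/- brain replicate 3 held a summed 1340 FPKM of pituitary markers, against at most 1.48 FPKM in the other brain libraries. Norad+/+ spleen replicate 3 held 259 FPKM of pancreas markers and 113 FPKM of liver markers, against at most 0.25 and 1.02 FPKM in the other spleen libraries. Red cell precursor markers in spleen summed to 89.4, 68.8 and 1250 FPKM in Norad-/- libraries, against 938, 2380 and 3140 FPKM in Norad+/+ libraries, and T cell markers to 601, 621 and 527 FPKM, against 439, 369 and 374 FPKM. Neuron markers were at 2120 to 2840 FPKM in brain and 4.45 to 23.2 FPKM in spleen, and B cell markers at 0.943 to 5.84 and 1620 to 2090 FPKM, as the tissue labels have it. The part of these differences in the results below was not tested unless a value is given.

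**Figure D2:**
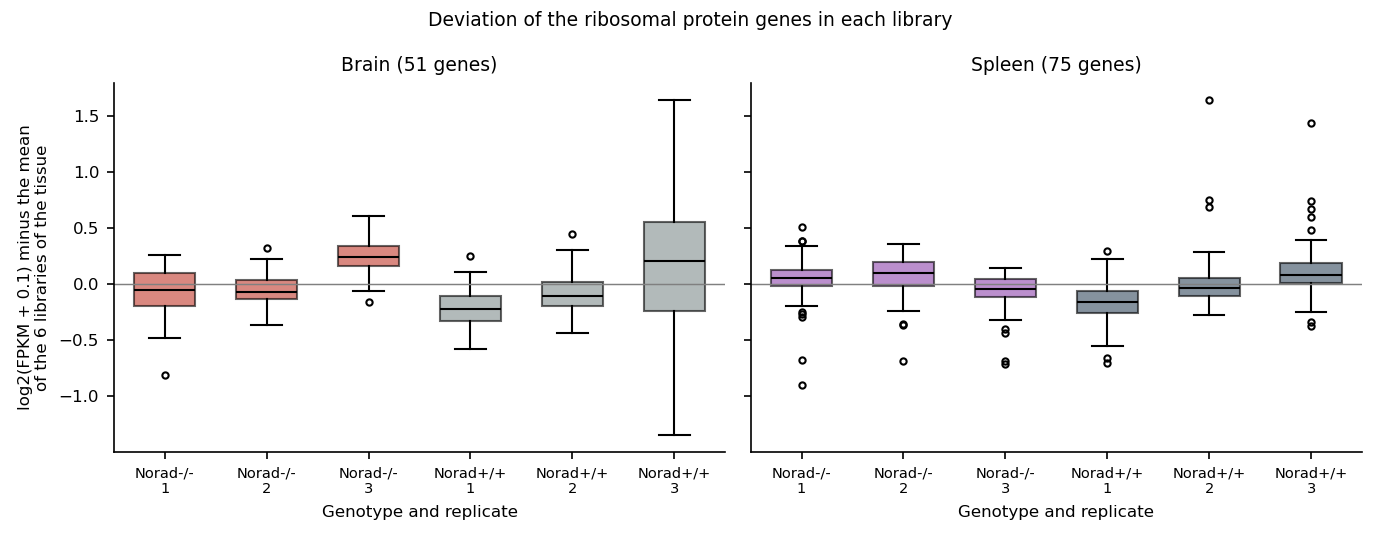
Deviation of each ribosomal protein gene that averaged 1 FPKM or more from its mean over the 6 libraries of the tissue, on the log2(FPKM + 0.1) scale, by library (box, quartiles; line, median; whiskers, the range apart from genes drawn as circles). In brain (51 genes) the box of Norad+/+ replicate 3 is the widest and Norad-/- replicate 3 has the highest median, 0.24, and in spleen (75 genes) the medians run between -0.16 and 0.09.

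The first comparison asked whether the members differed between the tissues without the deletion. They were lower in Norad+/+ brain: of 70 members tested, 64 fell relative to Norad+/+ spleen and 0 rose at a threshold of 0.05 (limma, p adjusted by Benjamini-Hochberg over 14216 genes), where 43.6% of all genes tested fell and 35.4% rose. The median member had a log2 fold change of -2.51, that is, a 5.68-fold lower level in brain, against -0.24 over all genes. A difference larger than 4-fold was found for 53 of the members that passed. The share of all genes past 4-fold is not reported here, and 14.3% of all genes tested lay below the members' median. In all 64 the 3 brain values lay under the 3 spleen values, as they did for 45.4% of all genes. The median was -2.38 when values were rescaled to TPM, with the median of all genes moved to -0.04, so that the distance between both medians was nearly the same. In whole tissue, fewer cells of a type with many ribosomes and less ribosomal protein mRNA in each cell cannot be told apart. Of the 54 members that averaged 1 FPKM or more in each of both tissues, 48 fell, so the difference did not rest on genes that passed the filter through spleen alone.

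Stalk proteins recruit elongation factors to the large subunit, and Rplp0, the base of the stalk, had the largest difference of the tested members, with 16.8, 18.8 and 15.9 FPKM in Norad+/+ brain, against 237, 252 and 296 FPKM in Norad+/+ spleen (log2 fold change -3.92 ± 0.14 SE, adjusted p = 1.15e-06, limma). Rplp1 had 126 ± 9.87 FPKM in Norad+/+ brain and 782 ± 144 FPKM in Norad+/+ spleen (SD, n = 3 each). Rplp2 was listed far lower in both tissues, at 0.695 ± 0.144 and 4.34 ± 0.397 FPKM (SD, n = 3 each), although it shares a complex with Rplp1 in equal number. For Rplp1 and Rplp2 the log2 fold changes were -2.62 and -2.49, so their difference between tissues was of like size while their listed levels were not.

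Small subunit proteins had a median log2 fold change of -2.71, with 24 of 25 tested members lower, and large subunit proteins a median of -2.40, with 36 of 40 lower. Rps19, which is mutated in Diamond-Blackfan anaemia, had 5.83, 5.61 and 8.76 FPKM in Norad+/+ brain, against 72.1, 75.6 and 73.1 FPKM in Norad+/+ spleen (-3.46 ± 0.19 SE, adjusted p = 4.25e-06, limma). Rps20 had 11.8, 12.5 and 15.3 FPKM, against 137, 126 and 151 FPKM (-3.38 ± 0.15 SE). Rps6, the substrate of S6 kinase, differed less, with 3.83, 3.62 and 6.28 FPKM in brain and 16.1, 13.8 and 15.5 FPKM in spleen (-1.75 ± 0.23 SE). The smallest differences that passed were those of Rps7 (-0.59) and Rpl36 (-0.92).

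Of the tested members, 6 did not pass in the main fit, though Rps4l and Rpl15 passed as higher with values rescaled to TPM. Rps4l, Rpl15 and Rpl5 had log2 fold changes of 0.70, 0.26 and 0.10, and Rps15a, Rpl27a and Rpl23a of -0.04, -0.41 and -0.45. Rpl15, a core protein of the large subunit, had 14.9, 16.7 and 14.0 FPKM in Norad+/+ brain, against 11.5, 12.5 and 14.1 FPKM in Norad+/+ spleen, and the groups overlapped. Rpl5, which with Rpl11 and 5S RNA forms the particle that restrains Mdm2 when ribosome assembly fails, had 8.48, 8.64 and 11.03 FPKM in brain and 9.40, 8.48 and 8.26 FPKM in spleen. Its partner Rpl11 fell with most members, at 0.236, 0.107 and 0.476 FPKM, against 1.67, 2.74 and 2.51 FPKM (-2.79 ± 0.40 SE). Rps15a had 16.2, 16.8 and 10.9 FPKM in brain, against 9.26, 37.6 and 9.196 FPKM in spleen, where replicate 2 stood alone.

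Rpl15, Rpl5 and Rps15a have 3' UTRs annotated at 1188, 1009 and 4728 bases, Rpl27a one of 638 bases, and their coding windows were copied to 99.8%, 100%, 66.1% and 100%. All 3 of the first carry a PRE. A long 3' UTR did not go with a small difference throughout: of the 9 tested members with one of at least 1000 bases, the others ran down to -3.38 (Rps20, with 3167 bases), and the median of the 9 was -2.25, against -2.52 for the 60 members with shorter ones. Of the 8 members with a PRE, 5 fell and 0 rose, with a median of -1.52, where 64 of 70 over all members and 43.6% of all genes fell. By copied share the medians were -2.85 for the 16 members under 50%, -2.47 for 27 between 50% and 90%, and -2.05 for the 25 tested at 90% or more. In the first of these sets the values ran from -3.92 to -2.10. The 32 members at 90% or more, tested or not, had a median of 0.561 FPKM in Norad+/+ brain. At such low levels the pseudocount of 0.1 FPKM understates a difference, and its part in these medians was not tested.

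**Figure D3:**
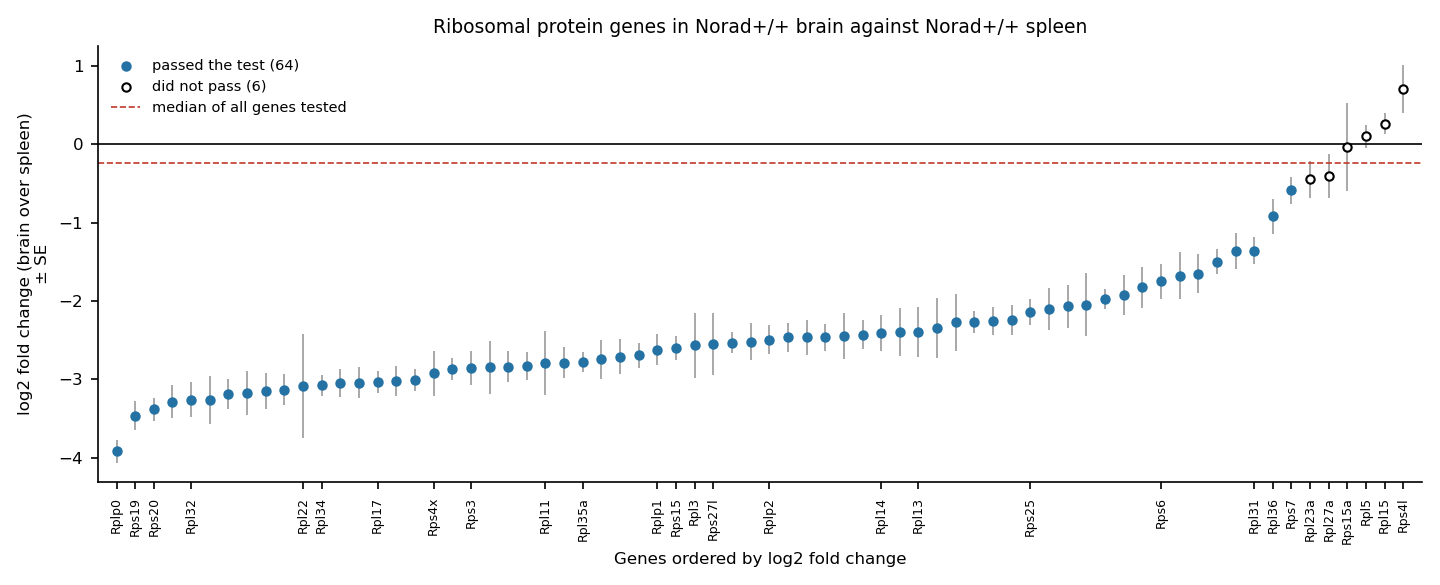
log2 fold change, Norad+/+ brain over Norad+/+ spleen, of each of the 70 ribosomal protein genes tested, on the log2(FPKM + 0.1) scale with its standard error (limma, 3 libraries each), ordered by value, with names under the genes the text describes. Filled points (64) passed an adjusted p of 0.05 and all lie below 0, open points (6) did not, and the dashed line is the median of all genes tested, -0.24.

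Of the paralogs named with a final l, Rps27l and Rps4l passed the filter on low values in this comparison. Rps27l fell with most members (-2.55 ± 0.40 SE, adjusted p = 0.000919, limma), and Rps4l did not pass the test, as given above. The other three were low throughout. Rpl10l, a testis form of Rpl10, was listed at 0 in all 12 libraries. Rpl3l, the heart and skeletal muscle form of Rpl3, had 0.170, 0.138 and 0.202 FPKM in Norad-/- brain and 0.162, 0.0404 and 0.328 FPKM in Norad+/+ brain, with 0% of its windows copied, and stayed under 0.19 FPKM in spleen. Rpl39l was above 0 in 1 brain library (0.0741 FPKM in a Norad-/- brain), and in spleen it had 0.265, 0.247 and 0.105 FPKM in Norad-/- libraries, against 0.502, 0.306 and 0.365 FPKM in Norad+/+ libraries. Rps27l was listed above Rps27 in every library, at 2.98 ± 1.77 against 1.12 ± 0.184 FPKM in Norad+/+ brain and 16.6 ± 4.35 against 3.31 ± 0.0319 FPKM in Norad+/+ spleen (SD, n = 3 each), with 28.2% of its windows copied and 100% of those of Rps27. Rps4l was higher than Rps4x in every Norad+/+ brain library (6.47, 8.65 and 7.22 against 3.11, 3.65 and 6.45 FPKM) and lower in every Norad+/+ spleen library (2.85, 6.62 and 4.87 against 27.1, 32.6 and 38.5 FPKM).

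Lists of related genes are given beside the shares of all genes tested, of which 43.6% fell and 35.4% rose in Norad+/+ brain with a median of -0.24. Of 24 elongation and initiation factors and other TOP mRNAs 22 fell and 0 rose (median -1.46), among them Eef1a1 (-2.41) and Btf3 (-1.91). Of 52 ribosome biogenesis genes 40 fell and 1 rose (median -0.96; Heatr1 -1.75, Nop58 -1.97), and of 14 RNA polymerase I genes 10 fell and 0 rose (median -1.29). Of 76 mitochondrial ribosomal protein genes 27 fell and 2 rose (median -0.37), a smaller share lower than over all genes. Of 69 nuclear genes of oxidative phosphorylation 2 fell and 24 rose (median 0.46), a share higher that was close to that of all genes. Ribosomal proteins that the symbol rule misses had values of the same kind, with Rpsa at -2.57 and Fau at -1.80, both past the threshold.

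The next comparison asked what the deletion of Norad changed in brain. None of the members passed: of 51 tested, 0 rose and 0 fell (limma, 13051 genes), where 0.0% of all genes rose and 0.0153% fell. At an unadjusted p under 0.05 there were 5 members higher and 1 lower, against 3.73% and 2.89% of all genes. The libraries did not overlap for 6 members that were higher and 1 that was lower in Norad-/- brain, where 10.6% and 6.56% of all genes did so. The median log2 fold change was 0.06, with 30 of 51 above 0, against 0.02 and 55.1% over all genes tested. It was 0.21 without Norad+/+ brain replicate 3, with 47 of 52 members above 0 (the share of all genes is not reported here) and 0 called, against a median of 0.03 over all genes. It turned to -0.04 without Norad-/- brain replicate 3, the library with pituitary markers, and to -0.01 without Norad+/+ brain replicate 1. The members thus had no direction in brain that held over its libraries.

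Among single members, Rpl35a, a large subunit protein, had 20.1, 23.6 and 25.4 FPKM in Norad-/- brain, against 17.7, 17.5 and 18.3 FPKM in Norad+/+ brain. The groups did not overlap and were 1.28-fold apart (log2 fold change 0.36 ± 0.11 SE), but the adjusted p was 0.69 (limma). Rps15, of the small subunit, had the same layout, with 122, 115 and 149 FPKM in Norad-/- brain, against 102, 103 and 87.0 FPKM in Norad+/+ brain. Rpl32 had 82.2, 82.7 and 90.6 FPKM in Norad-/- brain, against 64.2, 73.1 and 44.2 FPKM in Norad+/+ brain, where the value of 44.2 came from replicate 3, and its log2 fold change of 0.52 was 0.31 without that library. Rplp0 had 20.01, 19.9 and 26.3 FPKM, against 16.8, 18.8 and 15.9 FPKM (0.35 ± 0.14 SE). Rps4l was the only member lower without overlap, with 5.72, 4.98 and 5.67 FPKM, against 6.47, 8.65 and 7.22 FPKM (-0.43 ± 0.13 SE, adjusted p = 0.69, limma).

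For some members the value of Norad+/+ brain replicate 3 lay far from the other brain libraries. Rpl3, a core protein near the peptidyl transferase centre and the member with the highest fold change in brain (0.71), had 11.2, 11.97 and 13.9 FPKM in Norad-/- brain, against 9.84, 11.3 and 3.71 FPKM in Norad+/+ brain. Rpl22, an RNA-binding protein of the large subunit, had 8.61, 8.51 and 10.2 FPKM in Norad-/- brain, against 6.99, 7.70 and 32.9 FPKM in Norad+/+ brain. Its log2 fold change was -0.41, and 0.30 without replicate 3. Rps3 was low in the library Norad-/- brain replicate 1 instead, with 65.5, 129 and 172 FPKM, against 124, 142 and 90.2 FPKM. Of the related lists tested in brain, the elongation and initiation factors had 0 of 24 called, and Tpt1, a TOP mRNA, had the smallest p among them, with 1.75, 1.61 and 1.57 FPKM in Norad-/- brain, against 17.8, 4.97 and 11.8 FPKM in Norad+/+ brain (adjusted p = 0.338, limma). Of 75 mitochondrial ribosomal proteins, 1 (Mrpl57) fell.

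**Figure D4:**
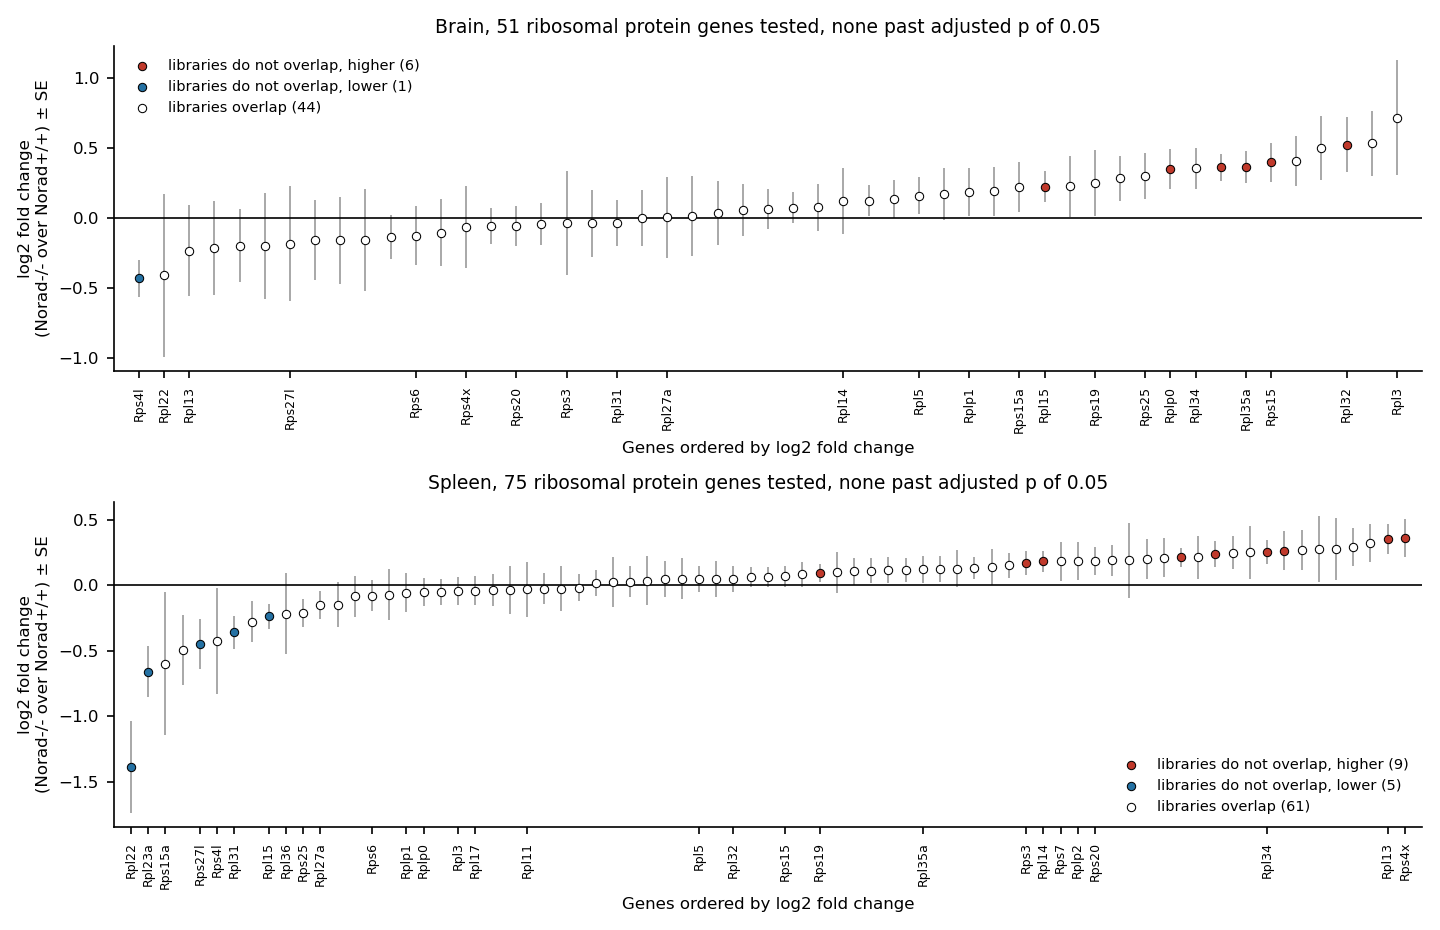
log2 fold change, Norad-/- over Norad+/+, of each ribosomal protein gene tested in brain (top, 51 genes) and spleen (bottom, 75 genes), on the log2(FPKM + 0.1) scale with its standard error (limma, 3 libraries each), ordered by value, with names under genes the text describes. None passed an adjusted p of 0.05, and coloured points mark genes whose libraries do not overlap, 6 higher and 1 lower in Norad-/- brain and 9 higher and 5 lower in Norad-/- spleen.

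In spleen the deletion likewise gave no member past the threshold. Of 75 members tested, 0 rose and 0 fell (limma, 12397 genes), where 0.00807% of all genes rose and 0.0242% fell. At an unadjusted p under 0.05 there were 4 members higher and 4 lower, against 7.42% and 13.6% of all genes, and the libraries did not overlap for 9 higher and 5 lower members, against 11.6% and 14.9%. The median log2 fold change was 0.07, against -0.02 over all genes. It stayed between 0.03 and 0.13 as each library was left out. With values rescaled to TPM the medians moved to 0.19 for the members and 0.10 for all genes, so the distance between them changed little while the sign of the median of all genes turned.

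Rpl22 had the largest difference of the members. Its FPKM was 39.7, 39.5 and 38.9 in Norad-/- spleen, against 61.9, 102 and 173 in Norad+/+ spleen. The groups did not overlap; the Norad-/- values were nearly equal and the Norad+/+ values spread widely (log2 fold change -1.39 ± 0.35 SE, adjusted p = 0.165, limma). Without Norad+/+ spleen replicate 3 it was -1.01 (adjusted p = 0.281), and with each library left out in turn the adjusted p ran from 0.0717 to 0.447. The gene lies at chr4:152325742-152334071 (+ strand, GRCm38), has a PRE in its 3' UTR (printed above) and has an identical copy of only 8.95% of its coding windows. Red cell precursor markers stood at 89.4, 68.8 and 1250 FPKM in the Norad-/- spleens, against 938, 2380 and 3140 FPKM in the Norad+/+ spleens. Any part of cell content in the Rpl22 difference was not tested. Rpl22l1, its paralog outside the symbol rule, had 8.11, 6.14 and 5.72 FPKM in Norad-/- spleen, against 7.41, 6.01 and 8.003 FPKM in Norad+/+ spleen, and overlapped.

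Other members with small p lay on both sides of 0. Rpl23a had 0.924, 0.877 and 0.908 FPKM in Norad-/- spleen, against 1.37, 1.25 and 1.91 FPKM in Norad+/+ spleen (-0.66 ± 0.20 SE, adjusted p = 0.185, limma), with all of its windows copied. Rpl31 had 5.47, 5.25 and 5.59 FPKM, against 5.98, 7.15 and 8.03 FPKM, and Rpl15 10.9, 10.3 and 10.97 FPKM, against 11.5, 12.5 and 14.1 FPKM. Each of these was lower in Norad-/- spleen with no overlap. Rpl13 was higher, with 23.0, 23.8 and 21.6 FPKM, against 16.2, 16.8 and 20.7 FPKM (0.36 ± 0.11 SE, adjusted p = 0.19, limma). Rps4x, the X-linked small subunit gene, had 39.5, 46.4 and 39.2 FPKM in Norad-/- spleen, against 27.1, 32.6 and 38.5 FPKM in Norad+/+ spleen, and Rps27l had 11.5, 11.8 and 12.4 FPKM, against 12.4, 16.3 and 21.1 FPKM. Of the members with fixed roles, Rpl5, Rpl11 and Rps19 were nearly level, with log2 fold changes of 0.05, -0.03 and 0.10, while Rpl22, given above, was not.

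**Figure D5:**
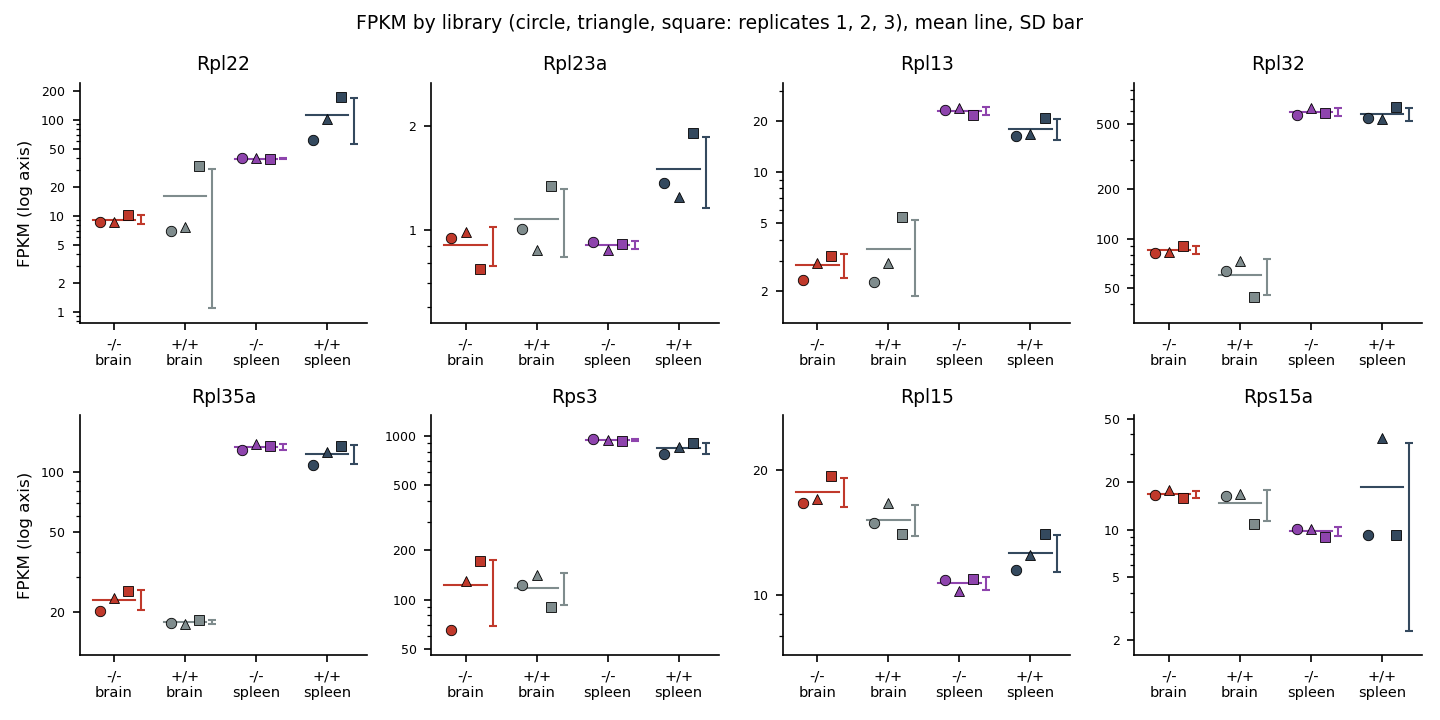
FPKM of 8 ribosomal protein genes in each library of the 4 groups, log axes with a scale of their own, with the mean as a line and the SD as a bar (n = 3 each). Rpl22 is near 39 in all 3 Norad-/- spleens and between 61.9 and 173 in Norad+/+ spleens, Rpl15 and Rps15a are no lower in brain than in most spleens, and Rps15a has 1 Norad+/+ spleen at 37.6.

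The share of all listed FPKM that the members held gave the sum of these differences. It was 0.508%, 0.537% and 0.623% in Norad-/- brain, against 0.482%, 0.504% and 0.530% in Norad+/+ brain, and the groups overlapped. In spleen it was 3.35%, 3.48% and 3.07% in Norad-/- libraries, against 2.83%, 2.77% and 2.91% in Norad+/+ libraries, without overlap (3.30% ± 0.207 and 2.84% ± 0.0709, SD, n = 3 each). The summed FPKM of the members in spleen did overlap, with 9934, 10622 and 9694 in Norad-/- libraries and 8525, 9363 and 10486 in Norad+/+ libraries. The FPKM of all genes summed to 296166 to 315554 in Norad-/- spleen, against 301390 to 360333 in Norad+/+ spleen. Globin genes held 1.75%, 1.56% and 7.09% of all FPKM in Norad-/- spleen, against 4.81%, 11.4% and 9.14% in Norad+/+ spleen. With these genes left out of the total, the members' share was 3.41%, 3.53% and 3.31% in Norad-/- spleen, against 2.97%, 3.13% and 3.20% in Norad+/+ spleen. The share is a summary that the highest 10 members largely set, and it carries no test.

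Most related lists in spleen had medians of the opposite sign to that of the members. The median was -0.04 for elongation and initiation factors and other TOP mRNAs, -0.09 for ribosome biogenesis genes and -0.04 for RNA polymerase I genes. Over all genes it was -0.02, and for ribosomal proteins outside the symbol rule it was 0.03. The 76 mitochondrial ribosomal proteins had a median of -0.17 with 15 above 0 and 0 called, and the 70 nuclear oxidative phosphorylation genes a median of -0.18 with 9 above 0 and 0 called, where 48 of the 75 members were above 0 (46.2% of all genes). Rescaled to TPM, both of those medians were -0.06. These genes were at their highest in Norad+/+ spleen replicate 3, with medians of 0.32 and 0.38 (log2) over the spleen mean, where the members were at 0.08.

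The last comparison asked whether the genotype difference of a member itself differed between brain and spleen. Of 70 members tested over the 12 libraries, 0 were higher and 0 lower (limma interaction, 14192 genes), where 0.0% of all genes were called in either direction. At an unadjusted p under 0.05 there were 3 members with a more positive difference in brain and 1 with a more negative one, against 10.7% and 4.03% of all genes. Rpl15 had the smallest p, with a log2 difference of 0.46 ± 0.15 SE (adjusted p = 0.244, limma): it was 0.22 in brain and -0.24 in spleen, without overlap in either. Next came Rpl17 (0.53), Rps25 (0.51) and Rps7 (-0.46). The median member was at -0.01, against 0.08 over all genes, and at -0.10 and -0.01 with values rescaled to TPM.

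Of the 8 members with a PRE in the 3' UTR, 7 were tested in brain and 8 in spleen, and 0 passed in either. Their median log2 fold changes were 0.12 in brain, with 4 above 0, and 0.05 in spleen, with 5 above 0. In Norad-/- spleen Rpl22 and Rpl15 were lower and Rpl14 was higher without overlap (118, 116 and 112 FPKM, against 94.2, 104 and 107 FPKM in Norad+/+ spleen), where 14.9% and 11.6% of all genes did so. In Norad-/- brain Rpl15 was higher without overlap, as 10.6% of all genes were. PUMILIO targets in general are not addressed by so few genes.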

How the data were processed

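RNA-seq of brain and spleen from Norad-/- and Norad+/+ mice, 3 libraries per group, was analysed from deposited FPKM values of 24062 genes, of which 2883 are at 0 in all 12 libraries. The authors sequenced stranded poly(A) libraries as single reads of 75 bases, filtered them (NGS QC Toolkit), used TopHat2 2.0.12 for alignment to GRCm38 and kept uniquely mapped reads, and the FPKM were made with StringTie 1.2.2 per the submitters' processing notes. For their own test they used featureCounts 1.4.6 and edgeR 3.8.6. FPKM are not counts, so no count model was fitted. In all, 0 value columns belong to no sample.

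Genes that averaged 1 FPKM or more in the libraries of a fit were tested on log2(FPKM + 0.1) with limma 3.58.1 (R 4.3.3, variance trend), separately for genotype in brain, genotype in spleen and tissue in Norad+/+, and over all 12 libraries for the interaction. P was adjusted by Benjamini-Hochberg over all genes of a comparison at 0.05. The pseudocount understates changes of genes near 0.1 FPKM. P-values measure the spread between these libraries. The fits were tested on simulated data with known changes. Depth, which the files do not give, was estimated from the smallest FPKM steps as 28.3 to 36.4 M reads, where 44.3% to 49.0% of values at or below 0.1 FPKM were whole reads within 2%, too few to recover counts. The search covered a fixed range of depths, so a depth outside that range could not have been found.

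Copied windows were found with bwa 0.7.19 in GENCODE M21 transcripts. Promoter sequences are from RefSeq and 3' UTR sequences from GENCODE. Tables and figures were made with Python 3.11.15, pandas 2.3.3, numpy 2.4.6 and matplotlib 3.10.9. Cell type markers were summed per library. The members and lists were chosen with earlier results of these data known. Named members are, in each comparison and direction, the 6 with the smallest p, the 5 highest and 5 lowest in each tissue, the paralogs and members with fixed roles, with up to 4 genes of each related list. Rpl14-ps1, Rpl34-ps1 and Mrpl57 were named after their values were seen. Some genes that meet these rules are not reported here. Results were recomputed with another pseudocount (1 or 0.01), filter (none or 5 FPKM), scaling (TPM, quantiles) or variance model, with replicate number as a block, and with each library left out. Leaving out replicate 3 of both Norad+/+ groups, and counting only members of at least 1 FPKM in each tissue, were added after the data were seen.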

Additional observations from a re-analysis of the deposited data

How the results depend on the processing

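The tissue difference held throughout, and 64 members were lower in Norad+/+ brain, with 61 to 66 as each library was left out. The count was 41 with a mean of at least 5 FPKM, where fewer genes are tested, and the median was -2.08 with a pseudocount of 1 FPKM. Members higher in Norad+/+ brain were 0 in the main fit. With values rescaled to TPM, to TPM over non-members or by quantile normalization they were 2, Rps4l and Rpl15. Rescaled to TPM, these had log2 fold changes of 0.90 and 0.46. Rpl15 was the 1 member higher with all 12 libraries fitted, and also without replicate 3 of both groups. As each library was left out, 0 to 2 members were higher. Rpl5 lay between -0.022 (without Norad+/+ brain replicate 3) and 0.165 with 1 library left out, and at -0.059 without replicate 3 of both groups. The cause was not tested.

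In brain the members' median ran from -0.044 to 0.205 as each library was left out. Rpl13 then ran from -0.499 to 0.119, Rpl22 from -0.806 to 0.304 and Rpl39 from -0.454 to 0.18, each highest without Norad+/+ brain replicate 3. In the interaction 3 members were called higher with library quality weights, with Rpl15 at 0.33, against 0 otherwise. The share of all genes called with these weights is not reported here, so the 3 are not read as particular to the members. Of 847 values of named members under alternatives, 5 turned and 11 newly passed. The members' share of FPKM without the 5 highest was 0.323% in Norad-/- brain, 0.292% in Norad+/+ brain, 1.98% in Norad-/- spleen and 1.71% in Norad+/+ spleen, and 3.10% in Norad+/+ spleen without globin genes.

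The replicate numbers were checked for pairing. Same-numbered deviations correlated at 0.061, 0.068 and 0.11 in brain, 0.338, -0.147 and 0.29 in spleen and 0.027, 0.048 and 0.064 between tissues. With the replicate block 0 members passed for genotype in brain, in spleen or in the interaction, and 64 were lower and 1 higher in Norad+/+ brain. Each number correlated best with itself in brain, and all but replicate 2 did so in spleen and between tissues. Whether the numbers pair the libraries was therefore not settled.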
